A study of Arabidopsis thaliana with 12 samples.

Results

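The histone H3 genes AT1G13370, AT5G65360 and AT1G09200 of Arabidopsis thaliana were followed across 6 arrays of plants treated with sucrose medium and 6 arrays of plants treated with water. They are 3 of 691 genes with a probe that names 1 gene, in a deposited table of 3439 probes, and each is named alone by 1 probe of the platform annotation. All plants were wild type of the ecotype Wassilevskija. The sucrose group spent 30 min in medium of MS salts with 60 mM sucrose, and the other group was treated with water, for a duration the labels do not give. The tissue and age of the plants are not stated, and medium salts and sucrose were given together. The genes were selected on their annotation after the difference in intensity between sucrose medium and water had been seen, so that difference is given as a description, and the calls of the fit over all probes are printed for them only beside the share of all probes called. The likeness of the 3 probes within each group was tested.

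Histone H3 is a core protein of the nucleosome, the particle around which chromosomal DNA is wound, and its tail carries many of the modifications that mark active and silent chromatin. Plants, like animals, carry several H3 genes. Those for the canonical form, H3.1, are expressed mainly while DNA is replicated, and their product is placed on newly made DNA; the variant H3.3 is placed independently of replication, largely at transcribed genes. RefSeq lists AT5G65360 and AT1G09200 as H3.1 genes and gives no form for AT1G13370. H3 genes have closely similar coding sequences, and whether these probes separate them was not tested, since no probe sequences were used here.

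The 3 H3 probes were brighter in sucrose medium on the deposited scale, an intensity from 0 to 100 whose unit is not given. AT1G13370 ranged from 2.23 to 3.08 in sucrose medium with a median of 2.62, against 0.540 to 0.707 in water with a median of 0.631. AT5G65360, an H3.1 gene, ranged from 0.712 to 0.839 in sucrose medium with a median of 0.738, against 0.103 to 0.159 in water with a median of 0.117. AT1G09200, the other H3.1 gene, ranged from 0.481 to 0.722 in sucrose medium with a median of 0.564, against 0.149 to 0.210 in water with a median of 0.185. For each of the 3 probes all 6 sucrose samples were above all 6 water samples on this scale, which was also true of 63.6% of the 2915 probes tested. The array medians themselves differed, from 0.422 to 0.459 in sucrose medium and from 0.171 to 0.188 in water. Part of each difference is therefore shared with most of the array. The highest value of every array was 100 after rounding, and how the arrays were scaled is not given. Ratios between arrays on this scale depend on that unknown scaling.

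The ratio of mean deposited intensities, sucrose over water, was 4.18 for AT1G13370, 6.21 for AT5G65360 and 3.22 for AT1G09200. Among same-numbered samples the ratio lay between 3.16 and 4.81 for AT1G13370, between 4.47 and 7.0 for AT5G65360 and between 2.98 and 3.44 for AT1G09200. All 3 genes were above 1 in 6 of 6 such pairs. AT1G09200 thus had the smallest ratio and the narrowest range. In RNA from plants, more cells that express a gene and more RNA per cell cannot be told apart.

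After quantile normalisation, which gives every array the same distribution of log2 intensities, AT1G09200 again had the smallest difference of the 3 genes. AT1G13370 averaged 1.36 ± 0.21 in sucrose medium and -0.31 ± 0.11 in water on the log2 scale (SD, n = 6 each), a log2 fold change of 1.67 ± 0.10 (SE). AT5G65360 averaged -0.93 ± 0.11 in sucrose medium and -2.39 ± 0.23 in water, a log2 fold change of 1.46 ± 0.11. AT1G09200 averaged -1.41 ± 0.20 in sucrose medium and -1.84 ± 0.14 in water, a log2 fold change of 0.43 ± 0.10. Among all probes tested the median log2 fold change was -0.03. Of all probes tested, 96.8% had a lower log2 fold change than AT1G13370, 95.5% than AT5G65360 and 70.9% than AT1G09200.

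The groups did not overlap for AT1G13370 and AT5G65360 after this scaling, as for 21% of all probes tested with sucrose above water. For AT1G09200 they just met, with sucrose replicate 3 at -1.68, the lowest of its group, and water replicate 6 at -1.68, the highest of its group. In the fit over all probes (limma, adjusted p under 0.05) the 3 genes were among the probes higher in sucrose medium, a class that holds 31.5% of all probes, and 64.4% of probes passed in either direction. With samples 1 and 2, 3 and 4, and 5 and 6 averaged, because samples within these sets resemble each other most, AT1G13370 and AT5G65360 were among the 22.9% of probes higher in sucrose medium and AT1G09200 was not. Nothing is read from these counts, since the genes were chosen with this difference known.

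**Figure D1:**
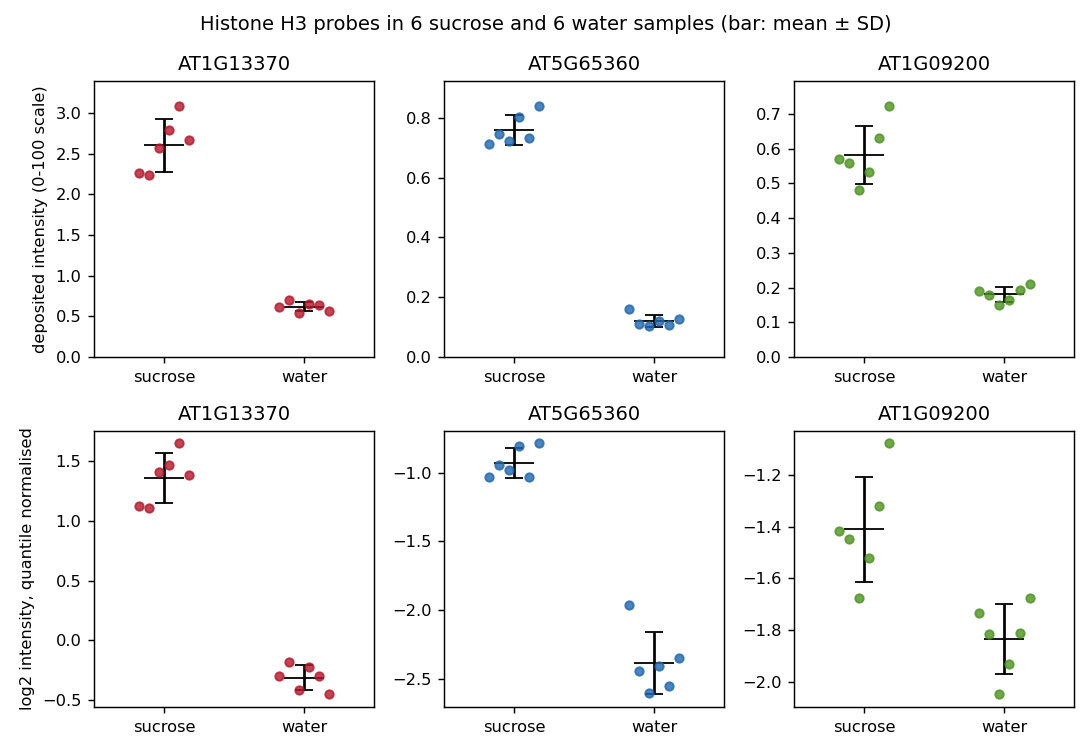
Deposited intensity (upper row) and quantile-normalised log2 intensity (lower row) of the 3 histone H3 probes in 6 sucrose and 6 water samples; points are samples, in order of replicate number, and bars are mean ± SD. On the deposited scale all sucrose samples are above all water samples for the 3 genes, as for 63.6% of the probes tested. After normalisation this holds for AT1G13370 and AT5G65360, as for 21% of the probes tested, and the groups of AT1G09200 meet at -1.68.

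The position of a probe's brightness within its own array does not depend on any scaling that keeps the order of probes. Among the 2805 probes above 0 in all samples, AT1G13370 stood at the 93.7th to 95.6th percentile in sucrose medium, against the 77.3rd to 82.5th in water. AT5G65360 moved most by this measure, standing at the 64.1st to 70.2nd percentile in sucrose medium, against the 19.1st to 36.6th in water. AT1G09200 stood at the 44.4th to 62.8th percentile in sucrose medium, against the 33.4th to 44.5th in water. The ranges were separate for AT1G13370 and AT5G65360 and met for AT1G09200. The share of all probes with separate ranges by this measure was not computed, so nothing is read from this. A percentile describes the brightness of a spot and does not rank the genes by abundance.

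The brightness ratio of 2 probes on the same array is unchanged when the whole array is multiplied by 1 factor, though not by quantile normalisation or loess, which act on bright and dim probes differently. The ratios below are of deposited intensities. The ratio of AT5G65360 to AT1G09200, the 2 genes listed as H3.1, averaged 1.32 ± 0.16 in sucrose medium and 0.678 ± 0.099 in water (SD, n = 6 each). It ran from 1.16 to 1.5 in sucrose medium, against 0.566 to 0.836 in water, a shift of 0.96 on the log2 scale. These ranges did not overlap, and the share of other probe pairs without overlap was not computed. The ratio of AT1G13370 to AT5G65360 averaged 3.43 ± 0.43 in sucrose medium and 5.19 ± 0.90 in water, a shift of -0.59, and the groups overlapped. That of AT1G13370 to AT1G09200 averaged 4.52 ± 0.71 in sucrose medium and 3.47 ± 0.48 in water, a shift of 0.38, also with overlap. On the deposited scale AT5G65360 therefore gained on both other H3 probes in the group means of sucrose medium, and AT1G09200 lost ground to both. With quantile normalisation and cyclic loess AT1G13370 had the larger log2 fold change of the first 2, at 1.67 and 1.83, with AT5G65360 at 1.46 and 1.30. These shifts come from the same comparison as the choice of genes and carry no test.

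**Figure D2:**
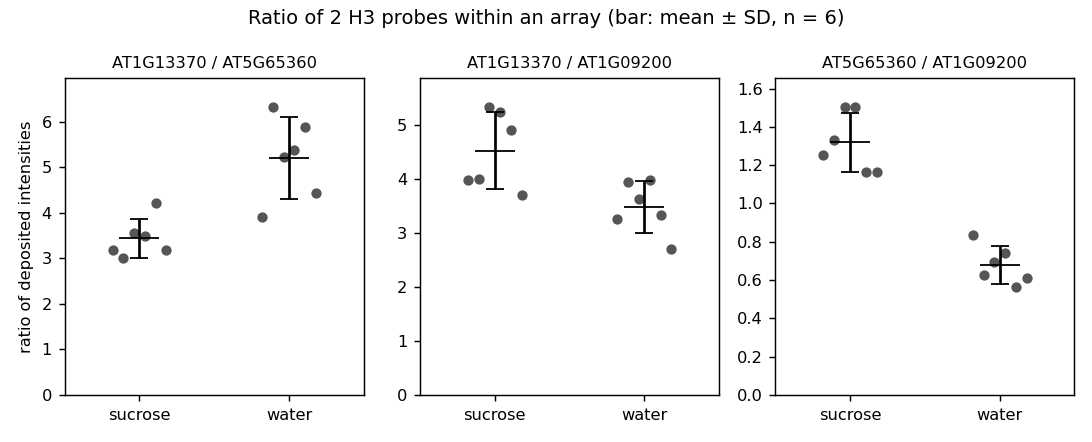
Ratio of the deposited intensities of 2 histone H3 probes on the same array, in 6 sucrose and 6 water samples; points are arrays and bars are mean ± SD. The ratio of AT5G65360 to AT1G09200 lies at 1.16 to 1.5 in sucrose medium and at 0.566 to 0.836 in water.

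Which gene had the largest change depended on the scaling. AT1G13370 was ahead with quantile normalisation and cyclic loess, as given above. With median centring AT5G65360 was ahead, at 1.39, with AT1G13370 at 0.80, and without scaling the values were 2.65 and 2.06. AT1G09200 was the smallest of the 3 in each of these settings, from 0.35 with cyclic loess to 1.68 without scaling. Without scaling all probes tested had a median of 1.09, and relative to it AT1G13370 was at 0.97, AT5G65360 at 1.56 and AT1G09200 at 0.59.

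The rule for the 3 genes leaves out probes whose annotation lists several genes. Of 15 H3 genes in a list drawn up for this family, 3 had a probe of their own, and 4 further probes were listed with 2 or 3 H3 genes each and no other gene. These 4 cannot be assigned to 1 gene, and were examined because they belong to the same family. The probe listed with AT5G10400 and AT5G10390, both H3.1 genes, had a log2 fold change of -1.07 ± 0.10 (SE), with a median deposited intensity of 0.320 in sucrose medium and 0.255 in water. The probe listed with AT5G10980 and AT4G40030, H3.3 genes, had -0.74 ± 0.10, with medians of 0.434 in sucrose medium and 0.318 in water. The probe listed with those 2 genes and AT4G40040, also an H3.3 gene, had -0.70 ± 0.16, with medians of 1.16 in sucrose medium and 1.52 in water. The probe listed with AT1G01370, the centromeric H3, and AT1G19890, an H3 of male gametes, had -0.48 ± 0.11, with medians of 0.853 in sucrose medium and 0.740 in water.

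All 4 of these probes passed the test as lower in sucrose medium after quantile normalisation (limma, highest adjusted p = 0.00247), as did 32.9% of all probes, although 3 of them were above 0 without scaling, at 0.18 to 0.48, where 2 passed as higher, and the probe of the centromeric and gamete forms was at 0.16 when arrays were fitted linearly to the average of the water arrays. With averaged sets of samples 3 of the 4 passed as lower, as did 23.9% of all probes, and the probe of the centromeric and gamete forms did not (limma, adjusted p = 0.0571). The 2 that passed as higher without scaling were the probe of AT5G10980 and AT4G40030 (limma, adjusted p = 0.000588) and that of AT1G01370 and AT1G19890 (limma, adjusted p = 0.00777), in a setting where 73.9% of all probes passed as higher. The probe of AT5G10980, AT4G40040 and AT4G40030 was at -0.33 without scaling and passed as lower (limma, adjusted p = 0.0223). In that setting 226 of 2915 probes passed as lower. Without scaling all 4 were below the median of 1.09 over all probes. The 3 probes of 1 gene each were above 0 in every scaling used. They were chosen with this difference known, and the share of all probes above 0 in every scaling was not computed. Probes listed with H3.1 genes lay on both sides of the median log2 fold change over all probes. Those of AT5G65360 and AT1G09200 were above it, and the probe of AT5G10400 and AT5G10390 was below. A further probe, listed with the H3.1 gene AT3G27360 and with AT3G27380, a succinate dehydrogenase subunit, had 1.33 ± 0.15 (SE), and its signal cannot be assigned to either gene.

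**Figure D3:**
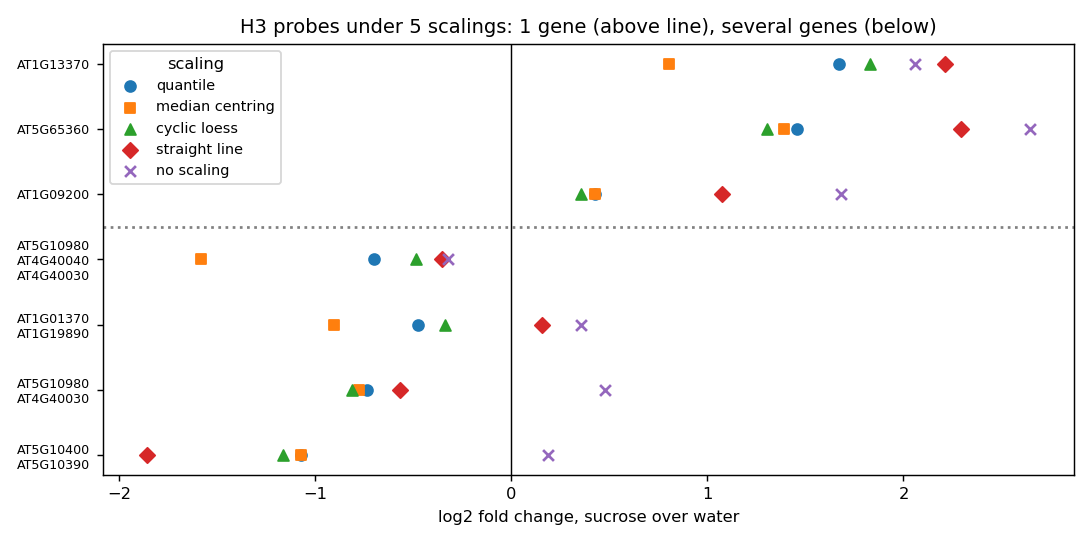
Log2 fold change, sucrose over water, of 7 histone H3 probes under 5 scalings between arrays; probes of 1 gene are above the dotted line and probes listed with several H3 genes below it. The upper 3, chosen with the difference known, are above 0 under all 5. The lower 4 are below 0 with quantile normalisation, median centring and cyclic loess.

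Whether the 3 probes move together was asked from the deviations of the 6 samples within each group. In sucrose medium AT1G13370 was lowest in replicates 1 and 2, at -0.23 and -0.25 on the log2 scale from the group mean, and highest in replicate 5, at 0.29. AT5G65360 was highest in replicates 6 and 4, at 0.14 and 0.12, and lowest in replicates 1 and 5, at -0.10 in both. AT1G09200 was lowest in replicate 3, at -0.27, and highest in replicate 6, at 0.33. Sucrose replicate 5 was thus the highest for AT1G13370 and among the lowest for AT5G65360.

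In water, AT1G13370 was highest in replicate 2, at 0.13, and lowest in replicate 6, at -0.14. AT5G65360 was highest in replicate 1, at 0.42, well above its other samples, and lowest in replicate 3, at -0.22. AT1G09200 was highest in replicate 6, at 0.16, and lowest in replicate 3, at -0.21. Water replicate 3 was below the group mean for all 3 genes, and replicate 6 was the highest for AT1G09200 and the lowest for AT1G13370.

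**Figure D4:**
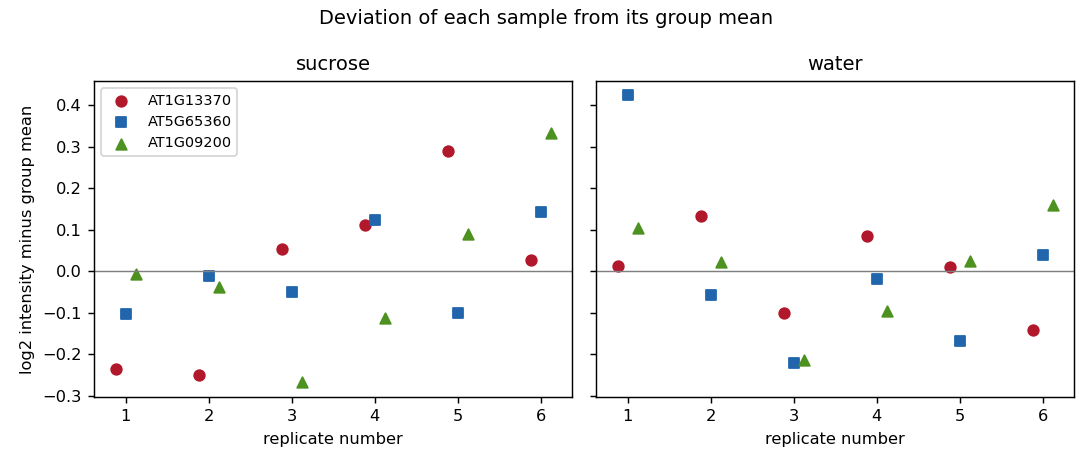
Deviation of each sample's quantile-normalised log2 intensity from the mean of its group, by replicate number, for 3 histone H3 genes in sucrose (left) and water (right). The samples that are high or low differ between the genes; sucrose replicate 5 is at 0.29 for AT1G13370 and at -0.10 for AT5G65360.

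At a threshold of 0.05, none of the 6 correlations, 3 pairs of genes in 2 groups, passed the test (exact two-sided permutation test over 720 pairings, Benjamini-Hochberg over the 6). AT5G65360 and AT1G09200 had the highest, with Pearson r of 0.36 in sucrose medium (p = 0.517, adjusted p = 0.901, exact) and 0.60 in water (p = 0.201, adjusted p = 0.901, exact). Their Spearman rho was 0.0857 in sucrose medium (p = 0.919, adjusted p = 1, exact) and 0.71 in water (p = 0.136, adjusted p = 0.817, exact). Without the 2 samples farthest from the median of AT5G65360, r was -0.46 in sucrose medium and 0.30 in water. These samples were replicates 4 and 6 in sucrose medium and 1 and 3 in water. In sucrose medium r was -0.36 without replicate 6 alone and 0.63 without replicate 4 alone.

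AT1G13370 had r near 0 with both H3.1 genes. With AT5G65360 its r was 0.112 in sucrose medium (p = 0.853, adjusted p = 0.901, exact) and 0.0923 in water (p = 0.876, adjusted p = 0.901, exact), and rho was -0.0286 in sucrose medium (p = 1, exact) and 0.0857 in water (p = 0.919, exact), both with adjusted p = 1. With AT1G09200 its r was 0.0936 in sucrose medium (p = 0.893, adjusted p = 0.901, exact) and -0.065 in water (p = 0.901, adjusted p = 0.901, exact), and rho was -0.0286 in sucrose medium (p = 1, exact) and -0.31 in water (p = 0.564, exact), both with adjusted p = 1. Without the 2 samples farthest from the median of AT1G13370, r with AT5G65360 was -0.65 in sucrose medium and 0.36 in water, and r with AT1G09200 was 0.037 in sucrose medium and 0.47 in water. With 6 samples an observed r of at least 0.773 to 0.848 in size, depending on the pair, was needed for an unadjusted p under 0.05. A correlation passing alone after adjustment over the 6 would need a larger r, so even fairly strong shared movement could have been missed. Whether the correlations differ between sucrose medium and water was not tested.

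The spread of the differences between genes was set beside the spread of the genes themselves. The SD of the log2 difference between AT1G13370 and AT1G09200 was 0.28 in sucrose medium and 0.18 in water, larger than the SD of either gene in its group. For AT1G13370 and AT5G65360 it was 0.22 in sucrose medium and 0.24 in water, again larger than both. For AT5G65360 and AT1G09200 it was 0.19 in sucrose medium and 0.18 in water, each between the SDs of the 2 genes. The first principal component of the 3 centred probes held 49.6% of their variance in sucrose medium and the second 40.3%. In water the first held 74.2%, where AT5G65360 alone had the largest SD, 0.23. As background, r between any 2 of the 2805 probes above 0 in all samples had a median of 0.02 in sucrose medium, with quartiles of -0.42 and 0.46, and a median of -0.0018 in water, with quartiles of -0.40 and 0.40.

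The sets of 2 adjacent replicate numbers, in which whole arrays were most alike, were visible in some of the genes and not in others. In sucrose medium AT1G13370 had gaps of 0.01, 0.06 and 0.26 within sets 1 and 2, 3 and 4, and 5 and 6. Its set means were 1.12, 1.44 and 1.52. AT1G09200 had set means of -1.43, -1.60 and -1.20 in sucrose medium and of -1.77, -1.99 and -1.74 in water, so the set of replicates 3 and 4 was lowest in both groups. AT5G65360 in water differed more within set 1 and 2, by 0.48, than between any set means. For AT5G65360 the SD within sets exceeded the SD of set means, at 0.13 and 0.05 in sucrose medium and 0.23 and 0.16 in water. The same held for AT1G13370 in water, at 0.11 and 0.07. The SD within sets was the smaller for AT1G13370 in sucrose medium and for AT1G09200 in both groups. Should these sets be repeats of 1 sample, on which the labels are silent, fewer than 6 samples per group are independent and the p-values above are too small. Sucrose minus water within the sets was 1.36, 1.76 and 1.89 on the log2 scale for AT1G13370, 1.22, 1.61 and 1.54 for AT5G65360, and 0.34, 0.39 and 0.55 for AT1G09200.

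The relation between same-numbered samples of the 2 groups was computed for each gene, and whether it differs between genes was not tested. For AT1G09200 the values in same-numbered sucrose and water samples had r of 0.89 (p = 0.0181, adjusted p = 0.0542, exact two-sided permutation test, n = 6) and rho of 0.94 (p = 0.0167, adjusted p = 0.05, exact), adjusted over the 3 genes, and r was 0.60 without the 2 sucrose samples farthest from the median. This relation did not pass the threshold after adjustment and was examined after the data had been seen. For AT1G13370 r was -0.30 (p = 0.539, adjusted p = 0.808, exact), with rho of -0.31 (p = 0.564, adjusted p = 0.846, exact) and r of 0.56 without the 2 farthest samples. For AT5G65360 r was -0.09 (p = 0.907, adjusted p = 0.907, exact), with rho of 0.09 (p = 0.919, adjusted p = 0.919, exact) and r of -0.42 without the 2 farthest samples.

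Among 565 other probes of 1 gene above 0 in all samples, the patterns most like each H3 gene were found by Pearson r over the 12 samples after the mean of each group had been removed. Nearest to AT1G13370 were AT4G33540 at 0.84, Cpn60beta3 (AT5G56500), a chaperonin subunit, at 0.82, and PRA1.B6 (AT5G07110), a prenylated Rab acceptor, at 0.81. Nearest to AT5G65360 were OSB1 (AT1G47720), an organellar single-stranded DNA-binding protein, at 0.76, AT3G50270 at 0.74 and AT1G32190 at 0.67. Nearest to AT1G09200 were AT2G04790 at 0.83, AT5G49840 at 0.82 and AT2G25870 at 0.80. None of these 3 H3 genes was among the 3 nearest of another. AT1G09200 was 45th in likeness to AT5G65360, with r of 0.43, while AT5G65360 and AT1G09200 were 207th and 217th in likeness to AT1G13370, with r of 0.08 and 0.05. These values describe likeness over samples that share arrays and scaling, and carry no test.

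Other genes that bear on H3 could not be set beside these values. Of 35 genes for other core and linker histones, 7 for H3 chaperones, 18 for proteins that modify or read H3, 19 of DNA replication and 20 cell cycle regulators, 0 were on a probe of this table that names 1 gene, so the share of dividing cells in the 2 groups was not tested. Of 10 genes that mark green tissue 1 was measured, AT2G34420, a light-harvesting chlorophyll-binding protein. Its median intensity was 9.42 in sucrose medium and 13.0 in water (log2 fold change -0.29 ± 0.14, SE). The probe thus gave signal in both groups, and alone it does not show which tissues were sampled. It did not pass in the main fit (limma, adjusted p = 0.098), but passed as lower in the fit blocked on replicate number (limma, adjusted p = 0.0070). It also passed as lower without scaling, with median centring and with values of 100 as missing, but not with cyclic loess (-0.087, adjusted p = 0.643), the linear fit (adjusted p = 0.201) or averaged sets (adjusted p = 0.262). None of 7 root and 4 shoot meristem markers was measured by a probe of 1 gene.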

How the data were processed

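RNA was measured on 12 arrays, grouped and numbered by the sample titles. The authors deposited an intensity for each probe, from 0 to 100, which was treated as linear. Its background correction and scaling are not given. All 12 arrays had the same highest value, 100 after rounding. Of 3439 probes, 692 named 1 gene, 870 several, and 1877 were not in the platform annotation, which was brought to RefSeq loci through gene identifiers. Zeros were taken as missing. Log2 intensities were quantile normalised, and limma 3.58.1 in R 4.3.3 was run on the 2915 probes with at least 4 values in each group (eBayes, no block, two-sided, Benjamini-Hochberg over all probes, threshold 0.05). Correlations within groups used exact permutation of 6 samples in Python 3.11.15, counting pairings with r at least as large in size. The unblocked fit after quantile normalisation and the exact permutation test were tried on simulated data, and the other steps were not. In the simulated arrays few probes changed, unlike in these data. Nothing says that samples came from separate cultures, so p-values cover only the spread between these arrays, which may be technical, and the number of arrays limits the precision.

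The genes, lists and tests were chosen with earlier results of these data known. Named genes are the 3 H3 genes, measured genes of the lists, and the 3 probes of 1 gene most like each H3 gene. The probes of several H3 genes, the ratios within arrays and the relation of same-numbered samples were added after seeing the data. Over 2805 probes, deviations from the group mean correlated at 0.280 to 0.450 between sucrose and water samples of 1 number (6 of 6 pairs), at 0.162 to 0.282 between other numbers of a set of 2, and at -0.290 to 0.045 between sets. The number was treated as a pairing on these values alone. Within groups, samples of a set had Spearman correlations of 0.979 to 0.986 in sucrose medium and 0.957 to 0.967 in water.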

Additional observations from a re-analysis of the deposited data

How the results depend on the processing

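The log2 fold changes of the 3 H3 genes, which were chosen with this difference known, stayed above 0 under all alternatives run. The size of these log2 fold changes depended on the scaling. AT1G13370 was at 0.80 with median centring, 2.06 without scaling and 2.21 when arrays were fitted linearly to the average of the water arrays. AT5G65360 was at 2.65 without scaling, 2.29 with the linear fit and 1.21 with 0.05 added before log2. AT1G09200 was at 1.68 without scaling and 1.07 with the linear fit. Leaving out 1 sample at a time gave 1.61 to 1.76 for AT1G13370, 1.40 to 1.53 for AT5G65360 and 0.36 to 0.48 for AT1G09200. With the replicate number as a block the 3 log2 fold changes were the same, at 1.67, 1.46 and 0.43, and the SE of AT1G09200 was 0.07 in place of 0.10; 2024 of 2915 probes passed the threshold, against 1878 without the block, and the block changed no call of an H3 probe. The count over all probes was 1366 with averaged sets and 2380 without scaling, and 1794 to 1845 with 1 sample left out. By direction 918 were higher and 960 lower with quantile normalisation, 2154 and 226 without scaling, 806 and 1210 with median centring, and 1132 and 451 of 2332 probes tested with the linear fit.

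The 6 correlations gave 84 values over all settings, which reuse the same samples and are not independent, and some repeat the main values. None passed the threshold, adjusted or unadjusted, with a lowest p of 0.117 (exact) and a lowest adjusted p of 0.7. Several changed sign, and the cause was not tested. For AT1G13370 and AT5G65360 in sucrose medium r was -0.064 with median centring, rho was -0.029 and r was -0.65 without the 2 farthest samples, and leaving out 1 sample gave -0.19 to 0.65; in water r was -0.17 with the linear fit, and -0.17 to 0.22 with 1 sample left out. For AT1G13370 and AT1G09200 rho was -0.029 in sucrose medium, with r of -0.077 to 0.23 with 1 sample left out; in water r was 0.16 without scaling and 0.47 without the 2 farthest samples, and -0.76 to 0.50 with 1 sample left out, where water replicates 4 and 6 turned the sign. For AT5G65360 and AT1G09200 in sucrose medium r was -0.46 without the 2 farthest samples and -0.36 to 0.63 with 1 sample left out, where sucrose replicate 6 turned the sign; in water it was 0.43 to 0.69.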

Other observations

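No sample of any H3 gene in either group lay far enough from the others to be set apart by Dixon's criterion for 6 samples, on the deposited or the normalised scale, in 12 groups of values checked.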
